A study of Mus musculus with 2 samples.

Results

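The Fos, Jun and ATF3 factors are 8 genes, Fos, Fosb, Fosl1, Fosl2, Jun, Junb, Jund and Atf3, out of 34820 gene names tested on the arrays. They were taken by name with no filter on their values, although earlier results of these data were known when they were chosen. Every non-control probe that carries 1 of these names was used, which gave 9 probes and 18 spots per array. Fosl2 had 2 probes, Fos had 1 probe that is printed in 10 spots, and each of the other genes had 1 probe in 1 spot. The scanner software marked both channels of both arrays as well above background at all 9 probes, and no spot was saturated.

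The arrays measured RNA of dorsal epidermis from FVB/N mice at postnatal day 4.5. Each of the 2 arrays compared littermates of 1 pair. The control carried K14-rtTA alone, and the SOX11-induced pup carried K14-rtTA together with TRE-Sox11-FLAG. Both pups of a pair received doxycycline (Dox) for 12 h, so the controls share the activator and the drug. K14-rtTA makes a doxycycline-dependent activator in cells with an active keratin 14 promoter, above all basal keratinocytes, and the bulk epidermis also holds suprabasal layers in which that promoter is mostly silent. Per the methods of the study, skin was incubated with the enzyme dispase to separate epidermis from dermis before RNA was taken. The levels are those after this step, and what the handling did to the members was not tested. A pair is called pair 1 or pair 2 after its replicate number, and these are 2 biological replicates. On both arrays the control was labelled with the green dye Cy3 and the SOX11-induced pup with the red dye Cy5. The log2 ratio of red over green is positive where a transcript was brighter after SOX11 induction, and because the labels give the dyes in the same order on both arrays, an effect of dye on a probe and an effect of genotype cannot be told apart. The methods mention a colour swap, of which the labels show nothing. If the dyes had been exchanged on 1 of the arrays, every ratio of that pair would turn its sign, and the directions given here follow the labels. The ratios of the arrays had a Pearson r of 0.685 across the 21782 probes with a signal above background, which are not independent replicates. In bulk tissue, fewer cells of a type and less RNA per cell cannot be told apart either. All 6 keratinocyte markers examined were above background in all 4 pups.

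Fos and Jun proteins belong to the bZIP class, in which a basic region touches DNA and a leucine zipper joins a pair of subunits. A Fos protein pairs with a Jun protein to make AP-1, a factor that binds the motif TGACTCA, while Jun proteins can also pair with each other or with ATF proteins and then bind the longer motif TGACGTCA. Fos, Fosb, Junb and Atf3 are immediate early genes, which growth factors, wounding and stress switch on for a short time through MAP kinases, whereas Jund is expressed more steadily. In the epidermis AP-1 factors act on keratinocyte growth and on genes of the cornified envelope. The comparison asked whether the mRNA of these factors differed after 12 h of SOX11 induction. No earlier time was measured, so a short change that had ended by then would be missed.

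After loess, none of the 9 probes passed an adjusted p of 0.05 in either direction. This count depends on the scaling. With an offset of 50 in the background correction 1 probe, the brighter of Fosl2, passed as lower. With median centring in place of loess, which moved the median of all probes above background to 0.51, 6 passed as higher, those of Fos, Fosb, Jun, Junb, Jund and Atf3. Fosl2 had the lowest ratios, below 0 at both probes in both pairs after loess, while under median centring the mean of its brighter probe was 0.010. Junb and Atf3 had ratios above 0 in both pairs. The remaining 5 genes, Fos, Fosb, Fosl1, Jun and Jund, had ratios of opposite sign in the pairs. In 8 of 9 probes the ratio was higher in pair 2 than in pair 1, and this difference was widest for Fos, Fosb and Atf3. Before the values, the sequences behind the probes and genes these statements turn on are given.

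The probes are oligonucleotides of 60 bases, and which part of a transcript a probe reads bears on what its ratio counts. Positions in a transcript are counted from its first base, as the array files give them. The dimmer of the Fosl2 probes starts at position 738 of the transcript and the brighter at position 5726, so that the pair reads widely separated parts of the Fosl2 mRNA. The first of these and the Junb probe, which starts at position 707, are shown because they lie nearest to the start of their transcripts, while the probes of the other members start at positions from 1262 to 3593. Each is written 5′ to 3′ on the strand of the gene as deposited, with mm9 positions and with no letters marked.
Fosl2 probe, chr5:32455088-32455147, plus strand: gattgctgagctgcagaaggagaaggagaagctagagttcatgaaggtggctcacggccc
Junb probe, chr8:87501881-87501940, minus strand: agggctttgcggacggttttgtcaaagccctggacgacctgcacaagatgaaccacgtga

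The promoters of Fos, Fosb and Atf3 are shown because these 3 genes had the widest differences between the pairs. Each run holds the 250 bases before the transcript start of the gene, from RefSeq on the build GRCm38.p6, written 5′ to 3′ on the strand of the gene. Capitals mark TGACG, the core of the ATF and CREB motif, on either strand (CGTCA where it lies on the other strand), and TATAAA, the letters of a TATA box.
Fos, chr12:85473640-85473889, plus strand: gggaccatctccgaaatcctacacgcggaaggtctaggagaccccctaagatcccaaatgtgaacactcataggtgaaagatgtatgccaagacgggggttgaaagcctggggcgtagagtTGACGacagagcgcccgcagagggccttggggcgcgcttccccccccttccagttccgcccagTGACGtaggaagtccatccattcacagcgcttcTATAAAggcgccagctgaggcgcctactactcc
Fosb, chr7:19310046-19310295, minus strand: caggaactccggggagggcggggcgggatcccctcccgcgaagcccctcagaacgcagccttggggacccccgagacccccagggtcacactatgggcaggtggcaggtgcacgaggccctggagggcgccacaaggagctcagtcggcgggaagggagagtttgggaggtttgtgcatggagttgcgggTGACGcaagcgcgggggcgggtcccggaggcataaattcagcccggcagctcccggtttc
Atf3, chr1:191183334-191183583, minus strand: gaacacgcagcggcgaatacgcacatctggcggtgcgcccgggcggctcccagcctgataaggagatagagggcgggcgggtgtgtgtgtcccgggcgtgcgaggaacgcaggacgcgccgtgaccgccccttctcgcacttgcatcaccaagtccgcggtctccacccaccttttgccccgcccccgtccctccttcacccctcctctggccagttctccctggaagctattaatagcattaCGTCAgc

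In Fos the TGACG cores begin 129 and 66 bases before the start, and the TATA box 33 bases before it. Fosb holds the core 60 bases before the start, and Atf3 holds it 7 bases before the start. Of the 8 genes, 7 had an entry in the promoter table, and Fosl1 had none. Junb also holds the core, 106 bases before its start, which makes 4 of 7 promoters, while 17.8% of all 32851 promoters of that length hold it. The windows of Fosl2, Jun and Jund hold no such core. On both strands, the AP-1 motif TGACTCA (in 4.46% of all promoters), the full ATF and CREB motif TGACGTCA (1.55%), the SOX motifs AACAAAG (5.03%) and AACAATG (3.29%) and the CArG box of serum response factor (1.47%) were found in none of the 7 windows. TATAAA, searched on the strand of the gene alone, was in the Fos window only among the 7, and in 7.59% of all promoters. TGACG is also contained in TGACGTCA. These are matches of letters and are not measured binding. Bases farther upstream were not searched, so a motif absent from a window can still lie elsewhere in the promoter.

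**Figure D1:**
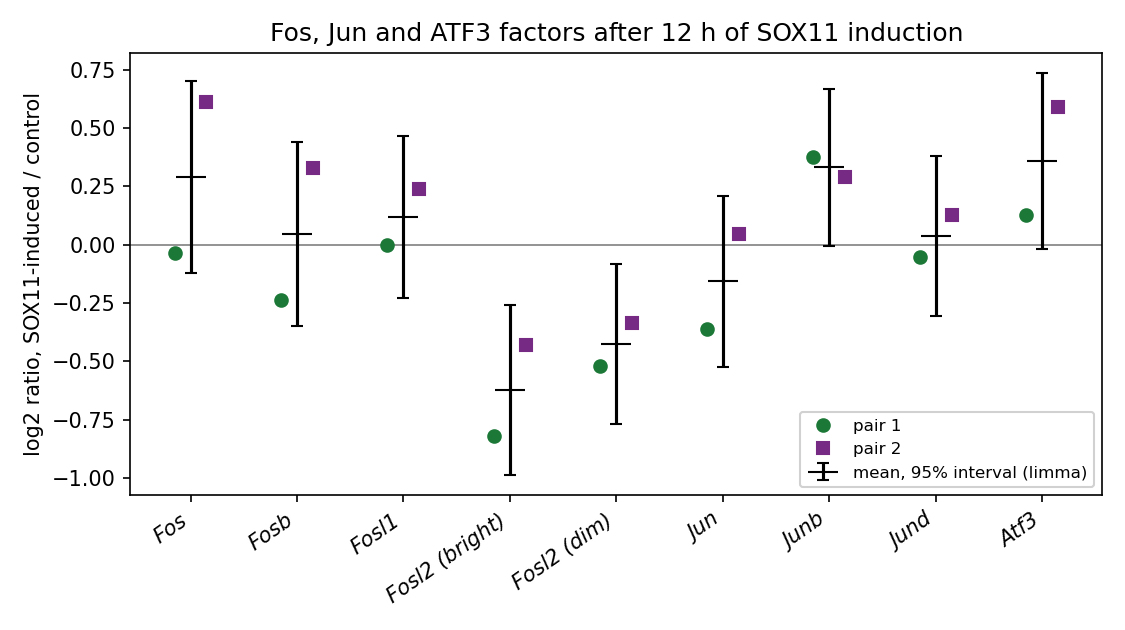
The vertical axis gives the log2 ratio of SOX11-induced over control epidermis for each of the 9 probes of the Fos, Jun and ATF3 genes on the horizontal axis; green circles are pair 1, purple squares pair 2, black dashes the mean and bars its 95% interval from limma. Both Fosl2 probes lie below 0 in both pairs under this normalization, Junb and Atf3 lie above 0 in both, and the purple square is the higher mark for every probe except Junb.

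Fosl2 encodes FRA-2, a Fos family partner of Jun proteins. Its brighter probe lies at chr5:32460076-32460135 on mm9. The log2 levels were 11.06 in the control and 10.24 in the SOX11-induced pup of pair 1, and 11.11 and 10.68 in those of pair 2. Levels here are log2 brightness after loess and scaling between arrays, and they serve to compare pups at 1 probe, not probes with each other. Both SOX11-induced pups were below both controls. The share of all probes that separate the genotypes in this way was not counted, so no weight is placed on it. The log2 ratios were -0.82 and -0.43, with a mean of -0.62 ± 0.277 (SD, n = 2) and a 95% interval from -0.99 to -0.26, and the adjusted p was 0.065 (limma, Benjamini-Hochberg over all probes). The fold that this mean gives is 0.649 of the control level.

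The dimmer Fosl2 probe gave the reverse order of pups within each genotype. Its log2 levels were 6.27 and 5.76 in the control and SOX11-induced pup of pair 1, and 6.08 and 5.74 in those of pair 2. Again both SOX11-induced pups were below both controls, and as the share over all probes was not counted, no weight is placed on this either. The ratios were -0.52 and -0.34, with a mean of -0.43 ± 0.130 (SD, n = 2), a 95% interval from -0.77 to -0.08 and an adjusted p of 0.151 in limma. This probe carried the mark for above background at a low signal, with a spot brightness of 92.5 over a background of 56 in the red channel of array 1. Of the 21782 probes with a signal above background on both arrays, in 1 channel or both, 3.82% had a mean as low as that of the brighter probe and 8.83% as low as that of the dimmer. Probes of 1 transcript are not replicates, and they come from the same labelled RNA.

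Neither Fosl2 probe passed the adjusted threshold. Both had an unadjusted p under 0.05 (0.00368 and 0.0198), as did 9.17% of all 55676 probes in that direction. The threshold was near: the 2446 probes that passed had means of at least 0.624 in size, and a probe with an SD of 0.132 between the pairs, the median over probes above background, needed 0.636. With an offset of 50 in place of 16 in the background correction, the brighter probe had a mean of -0.59 and an adjusted p of 0.0196, which is past the threshold. With median centring of each array in place of loess, its mean was 0.010. That scaling moved the median of all probes above background to 0.51, and relative to this median the brighter Fosl2 probe stood at -0.50 and the dimmer at -0.77.

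The genes whose pair of ratios lay nearest to those of the brighter Fosl2 probe, among 10628 genes above background in all 4 pups, were Pdzk1, Barx2 and Tmem97. Pdzk1, a scaffold protein of membrane transporters, had ratios of -0.82 and -0.44 (distance 0.0126 in log2 units). Barx2, a homeobox factor, had ratios of -0.83 and -0.44 (distance 0.0166), and Tmem97, a sterol-responsive membrane protein, -0.83 and -0.45 (distance 0.0205). Their adjusted p values were 0.0623, 0.0613 and 0.0605 in limma. Likeness over 2 arrays is a description of those arrays.

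Junb encodes a Jun family protein that can replace JUN in AP-1 and is often a weaker activator. The log2 levels of the probe at chr8:87501881-87501940 were 8.28 in the control and 8.65 in the SOX11-induced pup of pair 1, and 8.63 and 8.92 in pair 2. The SOX11-induced pup was higher than its littermate in each pair, and the lowest SOX11-induced pup was just above the highest control. How many of all probes separate in this way was not counted. The log2 ratios of 0.38 and 0.29 gave a mean of 0.33 ± 0.0614 (SD, n = 2), a 95% interval from -0.0047 to 0.67 and an adjusted p of 0.244 in limma. Junb had the smallest SD of the 9 probes, and it was the only one with a lower ratio in pair 2. Under median centring its mean was 0.88 (adjusted p = 0.00242, limma), or 0.38 relative to the median of the probes above background.

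Atf3 encodes a stress-induced bZIP protein that pairs with Jun proteins. Its probe lies at chr1:192994547-192994606, and the log2 levels were 10.51 in the control and 10.64 in the SOX11-induced pup of pair 1, and 11.13 and 11.72 in those of pair 2. The control of pair 2 was above the SOX11-induced pup of pair 1, so the groups overlapped. The ratios were 0.13 and 0.59, with a mean of 0.36 ± 0.327 (SD, n = 2), a 95% interval from -0.02 to 0.74 and an adjusted p of 0.257 in limma. This was the highest mean among the 9 probes, and it corresponds to a fold of 1.28. Under median centring the mean was 1.00 (adjusted p = 0.00261, limma), or 0.50 relative to the median of the probes above background.

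Fos and Fosb, the classic activating Fos subunits, had ratios below 0 in pair 1 and above 0 in pair 2. The Fos probe at chr12:86817900-86817959 had log2 levels of 10.85 and 10.82 in the control and SOX11-induced pup of pair 1, and of 11.05 and 11.67 in those of pair 2. Littermates of pair 1 were thus level, and in pair 2 the SOX11-induced pup was the higher. The ratios of -0.03 and 0.61 gave a mean of 0.29 ± 0.458 (SD, n = 2), a 95% interval from -0.12 to 0.70 and an adjusted p of 0.402 in limma. The Fosb probe at chr7:19888168-19888227 had log2 levels of 10.47 and 10.23 in pair 1, and of 10.98 and 11.31 in pair 2. Both pups of pair 2 were above both pups of pair 1. The ratios of -0.24 and 0.33 gave a mean of 0.05 ± 0.400 (SD, n = 2), an interval from -0.35 to 0.44 and an adjusted p of 0.913. Under median centring the mean of Fos was 0.93 (adjusted p = 0.00534, limma) and that of Fosb 0.68 (adjusted p = 0.0194), or 0.43 and 0.17 relative to the median of the probes above background.

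Fosl1 encodes FRA-1, a Fos family protein that rises in migrating and wounded keratinocytes. Its probe at chr19:5455496-5455555 had log2 levels of 6.42 in both pups of pair 1, and of 6.83 in the control and 7.07 in the SOX11-induced pup of pair 2. Here too both pups of pair 2 were above those of pair 1. The ratio was -0.0010 in pair 1 and 0.24 in pair 2, with a mean of 0.12 ± 0.170 (SD, n = 2), a 95% interval from -0.23 to 0.47 and an adjusted p of 0.704 in limma.

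Jun, the main partner of Fos proteins, was read by a probe at chr4:94716928-94716987. Its log2 levels were 15.08 in the control and 14.72 in the SOX11-induced pup of pair 1, and 15.11 and 15.16 in pair 2. The SOX11-induced pup of pair 1 was the lowest of the 4, and the other pups lay close together. The ratios of -0.36 and 0.05 gave a mean of -0.16 ± 0.288 (SD, n = 2), an interval from -0.53 to 0.21 and an adjusted p of 0.626 in limma. Under median centring without loess the mean was 0.63 (adjusted p = 0.0195), or 0.13 relative to the median of the probes above background, so the sign of the Jun mean turned with the scaling.

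Jund, the steadily expressed Jun protein, was read at chr8:73224436-73224495. The log2 levels were 13.51 and 13.46 in the control and SOX11-induced pup of pair 1, and 13.73 and 13.86 in those of pair 2. Jund had the mean nearest to 0, namely 0.04 ± 0.130 (SD, n = 2) from ratios of -0.05 and 0.13, with a 95% interval from -0.31 to 0.38 and an adjusted p of 0.918 in limma. The interval holds changes in either direction, and a p that misses the threshold does not show that Jund stayed level. Under median centring the mean was 0.77 (adjusted p = 0.00566, limma), or 0.27 relative to the median of the probes above background.

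**Figure D2:**
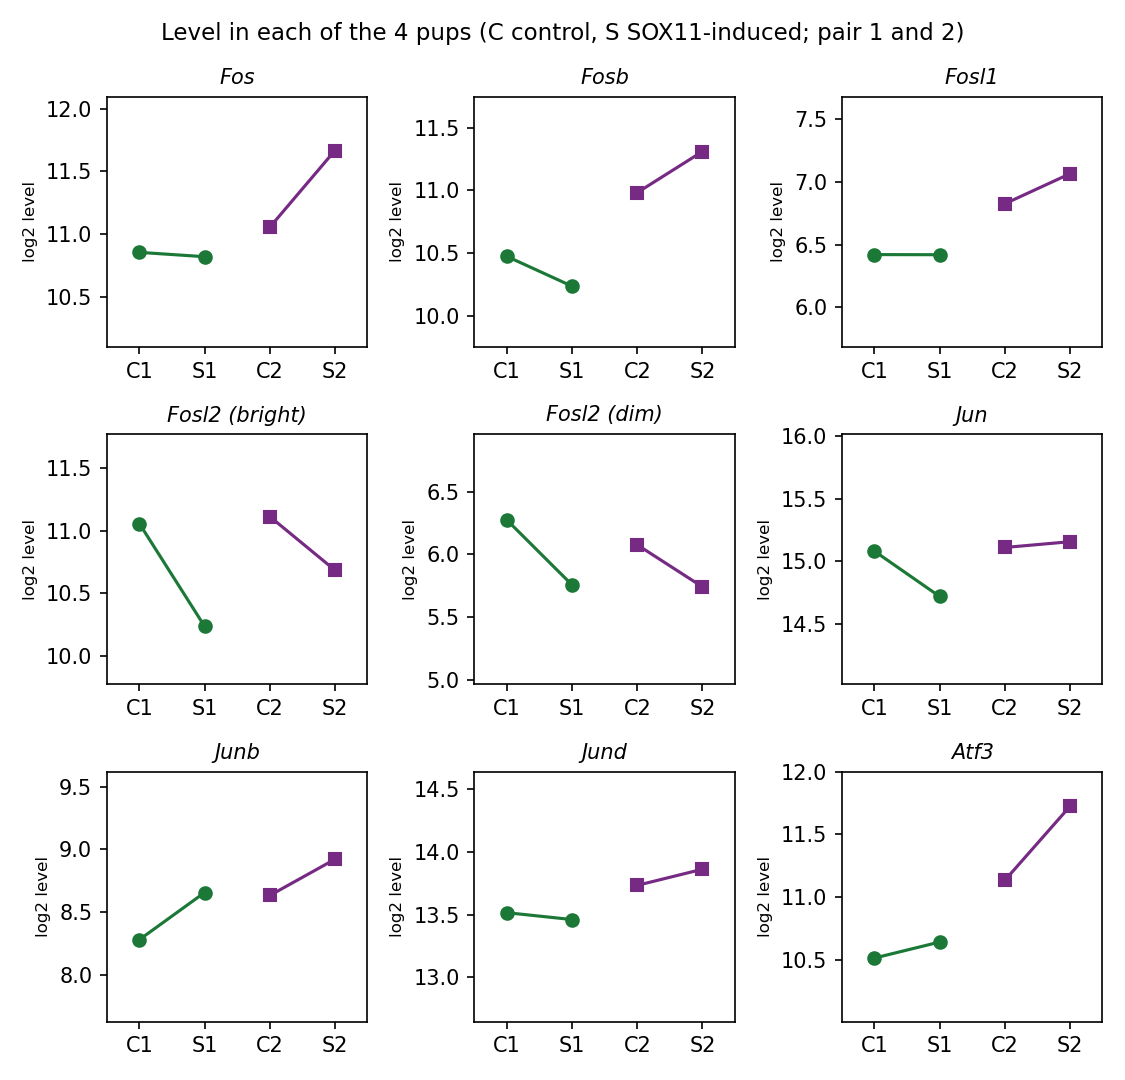
Each panel gives the log2 level of 1 probe in the 4 pups, with C1 and S1 the control and SOX11-induced pup of pair 1 (green circles) and C2 and S2 those of pair 2 (purple squares); every panel spans 2 log2 units, and lines join littermates. For Fos, Fosb, Fosl1, Jun, Jund and Atf3 both pups of pair 2 lie above both pups of pair 1. For both Fosl2 probes the SOX11-induced pups lie below the controls with this normalization, and the share of all probes that do so was not counted.

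Set against all probes, 0 of 9 member probes were higher and 0 were lower at an adjusted p under 0.05, while 2.99% of the 55676 probes were higher and 1.41% lower. Of the 21782 probes above background, 6.78% were higher and 3.21% lower. None of the 9 was past a log2 ratio of 1.5 as well, which 0.453% of all probes were in either direction. Of the 9 means, 6 were above 0 and 3 below, and their median was 0.05, against 0.04 over the probes above background. At 4 of 9 probes the pairs had the same sign, while 74.0% of the probes above background did. The intervals of all members reached from -0.99 at the lowest to 0.74 at the highest. They rest on variances moderated over all probes and not on the 2 arrays alone.

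The ratios of several members differed widely between the pairs. After loess, the log2 ratio was positive for 2 of 9 probes in pair 1 and for 7 of 9 in pair 2, and the median over the probes was -0.05 in pair 1 and 0.24 in pair 2. In 8 of 9 probes the ratio of pair 2 exceeded that of pair 1, against 50.1% of the probes above background. The excess was 0.65 for Fos, 0.57 for Fosb and 0.46 for Atf3. Of the probes above background, 1.81% had an excess of at least the Fos value, 3.24% at least the Fosb value and 5.96% at least the Atf3 value. The excess was 0.41 for Jun, 0.39 and 0.18 for the brighter and dimmer Fosl2 probes, 0.24 for Fosl1 and 0.18 for Jund, and Junb had -0.09. With 1 array per pair this difference has no replicate check, and no test was made.

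The 10 spots of the Fos probe give the spread within an array. On array 1 the 9 spots used had log2 ratios from -0.18 to 0.08, with an SD of 0.0820 over the spots. On array 2 the 10 spots had ratios from 0.52 to 0.69, with an SD of 0.0602. The spots of the arrays did not overlap. Of the 218 probes with 10 spots that were above background, 67 (30.7%), Fos included, did not overlap between the arrays, and 13 of the 218, again with Fos, had a gap between the pairs at least as large as that of Fos, as a size in either direction. Spots of 1 array share the labelled RNA, so this spread covers the array measurement alone and neither the labelling nor the pups.

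**Figure D3:**
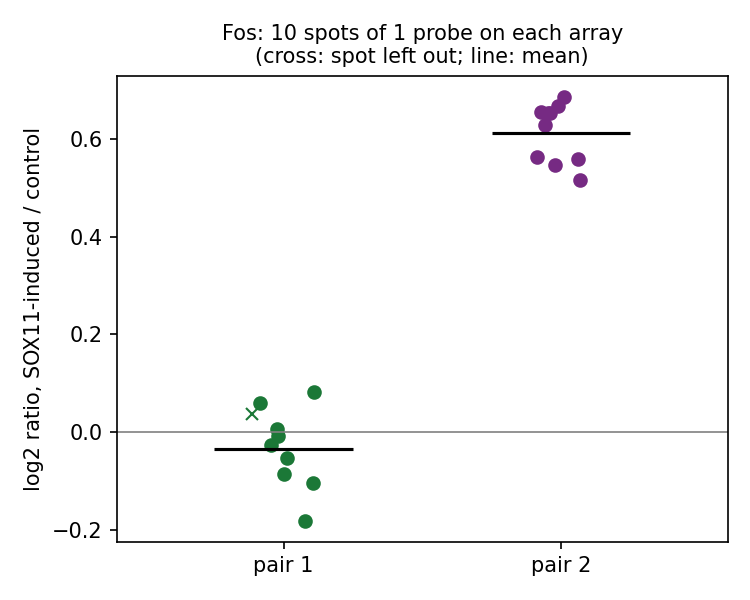
Each point is the log2 ratio of SOX11-induced over control epidermis at 1 of the 10 spots of the Fos probe, in pair 1 (green) and pair 2 (purple); the line is the mean and the cross a spot left out for an outlier mark of the scanner software. Spots of pair 1 lie between -0.18 and 0.08 and those of pair 2 between 0.52 and 0.69, without overlap.

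The levels themselves also differed between the pairs, in controls as well as in SOX11-induced pups. The control of pair 2 was higher than the control of pair 1 at 8 of 9 member probes, against 46.0% of the probes above background. The rise from control to control was 0.62 for Atf3, 0.51 for Fosb, 0.41 for Fosl1, 0.35 for Junb, 0.22 for Jund and 0.20 for Fos. It was 0.06 for the brighter Fosl2 probe and 0.03 for Jun, and the dimmer Fosl2 probe was lower by a log2 difference of -0.20. The median size of this difference over the probes above background was 0.198. Between the SOX11-induced pups the differences were wider, at 1.08 for both Fosb and Atf3, 0.85 for Fos and 0.65 for Fosl1, against a median size of 0.161. Each of these is the control difference plus the excess of the ratio in pair 2, and so is no separate observation. Both pups of pair 2 were above both pups of pair 1 at 6 of 9 member probes, against 15.3% of the probes above background.

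**Figure D4:**
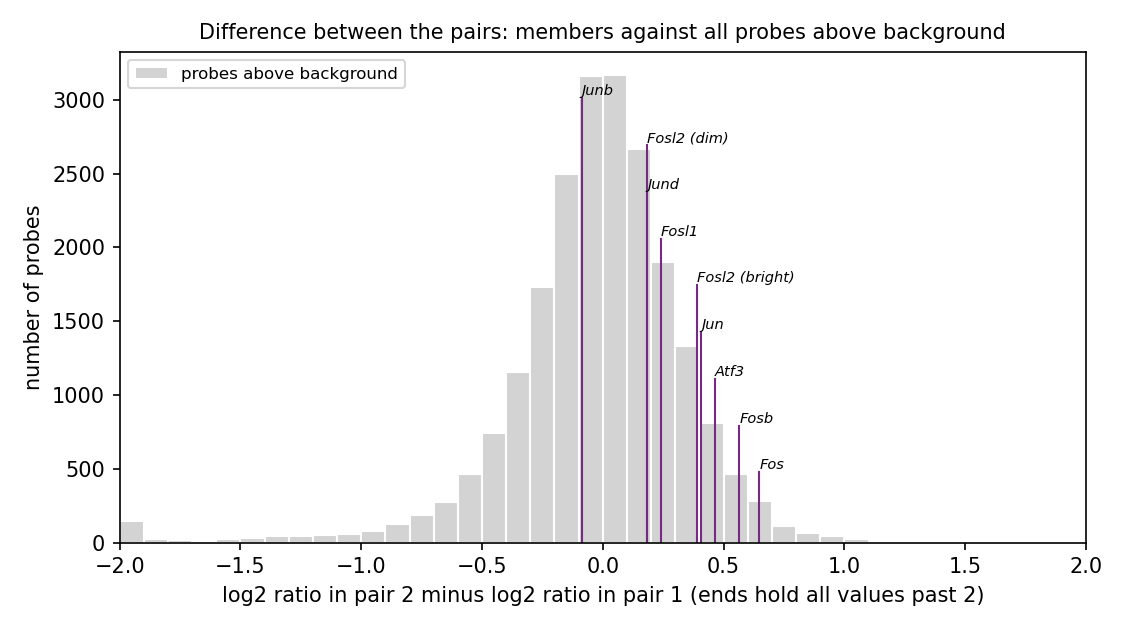
Grey bars count the 21782 probes above background (vertical axis) by the log2 ratio of pair 2 minus that of pair 1 (horizontal axis), and purple lines, whose heights carry no value, place the 9 member probes. All lines except that of Junb, at -0.09, lie above 0, and those of Fosb, at 0.57, and Fos, at 0.65, lie farthest to the right.

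Other features also differed between the pairs, and their part in these differences was not tested. Of 6 dermal fibroblast markers, 5 had a higher ratio in pair 2, with a median ratio of -0.10 in pair 1 and 0.50 in pair 2. The collagen genes Col1a1, Col1a2 and Col3a1 went from -0.03, -0.17 and -0.17 in pair 1 to 0.77, 1.14 and 0.91 in pair 2. Lum and Pdgfra were not above background in any pup, and Dcn, another fibroblast gene, was lower in both pairs (-0.97 and -0.62, adjusted p = 0.0260 in limma). The summed level of the 6 markers, on the linear scale after loess and scaling between arrays, was 1099 to 1182 in the controls and 834 to 1535 in the SOX11-induced pups. That of the 6 keratinocyte markers was 443901 to 536742 in the controls and 542130 to 603063 in the SOX11-induced pups, and sums over different probes are not compared with each other. This sum does not stand for every marker. Krt5 (-0.25 and -0.62), Krt14 (-0.13 and -0.50) and Trp63 (-0.18 and -0.28) had ratios below 0 in both pairs. Krt1 (0.36 and 0.89), Krt10 (0.23 and 0.94) and Lor (0.50 and 0.49) had ratios above 0. None of the 6 passed an adjusted p of 0.05 in limma. Melanocyte markers went the other way from the collagen genes, the median ratio being 0.59 in the first pair and 0.0018 in the second. Their summed level was 7483 to 9615 in controls and 7239 to 12648 in SOX11-induced pups. The 5 leukocyte markers had medians of -0.33 and -0.01, and a summed level of 4657 to 13781 in controls and 3328 to 10468 in SOX11-induced pups, with Lyz2 not above background in any pup. Cd207 had log2 levels of 10.42 (control) and 10.09 (SOX11-induced) in pair 1, and of 7.96 and 7.81 in pair 2. Cd74 had 13.53 and 13.12 in pair 1, and 11.96 and 11.38 in pair 2. Cd3e was also higher in both pups of pair 1, while Ptprc did not separate the pairs. The 5 endothelial markers had medians of 0.09 and -0.04 and summed levels of 786 to 815 and 734 to 750, and Cdh5, Emcn and Tek were not above background in any pup. Xist was above background in both pups of pair 1 and in neither of pair 2, and the Y-linked Ddx3y and Eif2s3y the reverse, so littermates matched in these genes and the pairs differed. This is the pattern of a female pair 1 and a male pair 2, and the methods describe pairs matched for sex. Sex and every other difference between the pairs cannot be told apart. Both arrays lay on 1 slide and were scanned at 1 time.

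The other genes of the pathway were taken from lists of known partners, regulators and targets, with each gene at its brightest probe. Earlier results of these data were known when the lists were made, so their counts are descriptions. Over all 34820 gene names, 3.52% were higher and 1.78% lower at an adjusted p under 0.05, and the median mean log2 ratio was -0.0001. Most of these names were dim, and of the 16341 above background 6.93% were higher and 3.52% lower. The 8 members had 0 higher and 0 lower by this count, and a median of 0.08.

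Of 32 other bZIP genes, 28 were above background, 3 were higher and 0 lower, and the median was 0.07. All 3 were among the 28. Nfe2l2, which encodes the antioxidant factor NRF2, had ratios of 0.81 and 0.70 (adjusted p = 0.0245, limma). Bach1, a repressor at the same antioxidant elements, had 0.58 and 0.85 (adjusted p = 0.0355). Crem, a factor of the cAMP response that can activate or repress, had 0.65 and 1.08 (adjusted p = 0.0204), and not every pup was above background for it. Whether these genes differ from the Fos, Jun and ATF3 genes was not tested.

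Of 40 kinases, serum response factors, phosphatases and other regulators that act on the members, 38 were above background, 3 were higher and 0 lower, and the median was 0.16. Elk3, a ternary complex factor that binds the Fos promoter with serum response factor, had ratios of 1.17 and 1.21, or 1.19 ± 0.0227 in the mean (SD, n = 2), with an adjusted p of 0.00261 in limma. Dusp6, the phosphatase that switches off ERK, had 1.12 and 0.62 (adjusted p = 0.0230), and Gadd45a, a stress gene upstream of p38 and JNK, had 1.02 and 0.71 (adjusted p = 0.0170). In this list 13 of 40 genes had a higher ratio in pair 2, against 7 of 8 members at their brightest probe. Of the 32 other bZIP genes 20 did, and of all 34820 gene names 17640 did.

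Of 35 genes with textbook AP-1 sites or AP-1 dependence, 23 were above background, 4 were higher and 1 lower, and the median was 0.24. Krt6a and Krt16, keratins of wounded and growing epidermis, had ratios of 2.23 and 0.53 (adjusted p = 0.0421, limma) and of 0.87 and 0.65 (adjusted p = 0.0267). Whether the Krt6a probe also binds RNA of the close paralog Krt6b was not tested. Sprr1b, a cornified envelope precursor, had 2.13 and 0.55 (adjusted p = 0.0383), and Vegfa, the vascular growth factor, 0.66 and 1.28 (adjusted p = 0.0188). Ccnd1, the cyclin of the G1 phase, fell, with ratios of -0.80 and -1.68 (adjusted p = 0.0117). Of the 35 genes, 17 had a higher ratio in pair 2. The ratios of Krt6a and Sprr1b were the higher in pair 1, where those of Fos, Fosb and Atf3 were the lower. Neither passed when probes above background alone were tested, and neither they nor Vegfa passed with the mean over the probes of a gene.

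Of 21 immediate early genes outside the members, 19 were above background, 4 were higher and 1 lower, and the median was 0.13. Egr1, a zinc finger factor that serum response factor controls together with ELK proteins, had ratios of 0.84 and 1.15, with a mean of 1.00 (adjusted p = 0.00879, limma). Ier3, a survival gene, had 1.03 and 0.64 (adjusted p = 0.0229), and Arc, known from neurons, 0.67 and 0.61 (adjusted p = 0.0462). Klf2, a zinc finger factor known from endothelium and lymphocytes, fell, with ratios of -1.27 and -0.69 (adjusted p = 0.0160). The remaining higher gene, Zfp36, was not above background in any channel on both arrays, and so was not described by the same rule (0.88 and 0.95, adjusted p = 0.0105). Nr4a1, singled out after its values were seen, had -0.45 in pair 1 and 0.53 in pair 2 (mean 0.04, adjusted p = 0.941, limma). In this list 14 of 21 genes had the higher ratio in pair 2, against 17640 of all 34820 gene names. No gene of these 4 lists was past a log2 ratio of 1.5 in the mean.

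**Figure D5:**
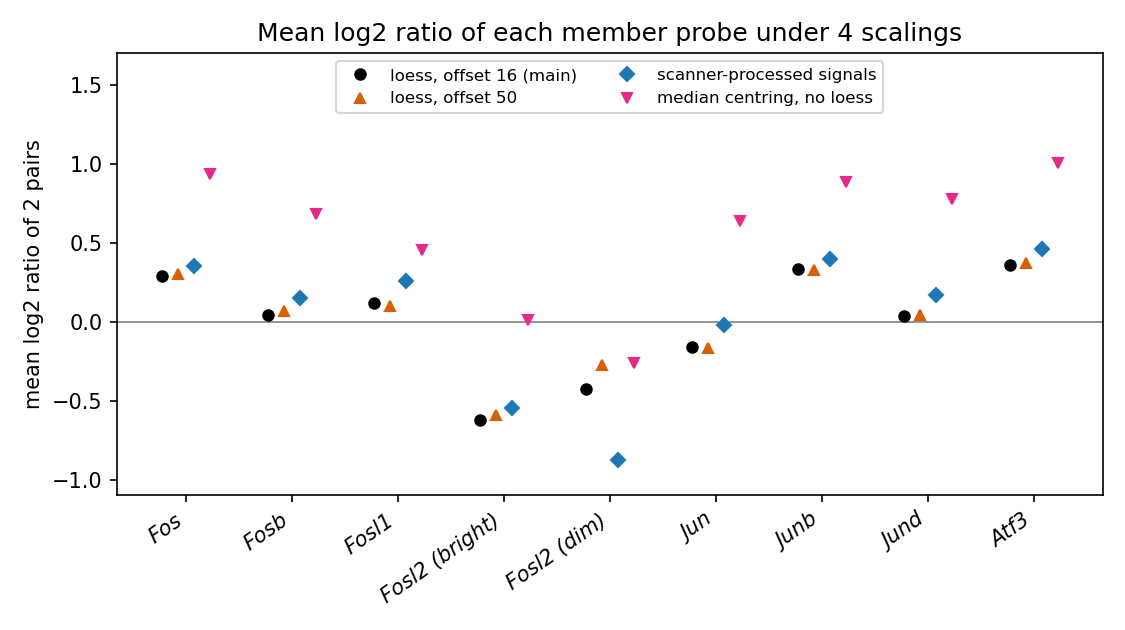
The vertical axis gives the mean log2 ratio of the pairs for each of the 9 member probes on the horizontal axis under 4 scalings, namely loess with an offset of 16 (black circles), loess with an offset of 50 (orange triangles), the scanner software's processed signals (blue diamonds) and median centring without loess (pink triangles). Under the first 3 scalings each probe keeps its sign, while under median centring, which moves the median of the probes above background to 0.51, the brighter Fosl2 probe stands at 0.010 and Jun at 0.63.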

How the data were processed

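The scanner files (1 per array) were written by Agilent Feature Extraction 10.7.3.1, per the file headers, and place probes on mm9. The authors deposited in them the intensity of every spot and of the background around it, for red and for green, in scanner units and not normalized, and processed intensity values that the software had corrected for background and dye. The deposited series table holds log2 ratios of red over green. Rebuilding it from spot medians with normexp and loess left differences of at most 0.000462, so the ComBat step named in the methods was not needed to obtain it.

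Spot means and background medians were corrected by normexp with an offset of 16 and centred by loess in R 4.3.3 with limma 3.58.1. Control spots had a weight of 0 in loess and were then left out, as were spots with an outlier mark (194 and 186 per array). Spots of a probe were averaged. For each of 55676 probes, the 2 log2 ratios were fitted with an intercept alone, with moderated variances (8.34 prior degrees of freedom, prior SD 0.223) and Benjamini-Hochberg adjustment over all probes. The p-values rest on this prior, since with 2 arrays the smallest p of an exact sign-flip test is 0.5. Log2 levels per channel came from loess and Aquantile scaling. A probe counted as above background in a channel where the software marked at least 0.5 of its spots so. The share of spots above background was 37.5% to 42.6% over the 4 channels. The number of arrays limits the precision.

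All members were named. From every other list, up to 5 genes with the largest mean in size were named among those past an adjusted p of 0.05, of 1 sign in both pairs and above background, and in addition the 3 genes nearest to the member with the largest mean. The members and lists were chosen with earlier results of these data known. Alternatives were another offset, median centring, processed signals, spot medians, marked spots kept, the series table, the mean over the probes of a gene, a filter on dim probes, each pair alone and, chosen after seeing the data, control spots kept in loess. The script was tested on simulated data. Sources of sequence are RefSeq (promoters) and the array files (probes).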

Additional observations from a re-analysis of the deposited data

How the results depend on the processing

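No member probe passed an adjusted p of 0.05 (limma) with spot medians, marked spots kept, the series table, control spots kept in loess or probes above background alone, and no member passed with the mean over the probes of a gene. With processed signals no probe of the whole array passed, and the signs of the members were kept. An offset of 50 gave 1 lower member probe, Fosl2 at its brighter probe. Median centring gave 6 higher member probes (Fos, Fosb, Jun, Junb, Jund and Atf3), with 12123 probes higher and 6362 lower over all 55676 against 1662 and 784 with loess. It reversed the sign of the brighter Fosl2 probe, to 0.010 (adjusted p = 0.970), and of Jun, to 0.63 (adjusted p = 0.0195). Relative to the median of the probes above background, which that scaling moved to 0.51, Junb stood at 0.38, Atf3 at 0.50, Fos at 0.43, Fosb at 0.17, Jund at 0.27, Jun at 0.13 and Fosl1 at -0.05. Counts of list genes past the threshold moved in the same settings. The bZIP genes went from 3 to 8 with an offset of 50, 16 with median centring and 0 with processed signals. The regulators went from 3 to 10, 30 and 0, and to 6 when probes above background alone were tested. The AP-1 targets went from 5 to 10, 20 and 0, and to 2 with the mean over the probes of a gene. The other immediate early genes went from 5 to 8, 16 and 0. The cause was not tested. All 15 other genes named from the lists kept their direction in every setting. Their call was lost for all 15 with processed signals, for Bach1, Krt6a and Arc with spot medians and the series table, for Krt6a and Sprr1b among probes above background alone, and for Krt6a, Sprr1b and Vegfa with the mean over the probes of a gene. Each pair alone gives its own ratio with no test. The fit is paired as it stands, because each array already is a littermate pair. No further pairing was possible because both samples are in 1 group.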
